A study of Rattus norvegicus with 2 samples.

Results

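The kisspeptin, neurokinin B and GnRH axis was followed in the hypothalamus of rats on both sides of puberty. The 7 genes of the axis were taken by name from the 22777 genes of the mRNA table, and all 7 were found, with 9 of the 26324 mRNA transcripts. They encode 4 peptide precursors (Gnrh1, Kiss1, Tac3 and Npvf) and 3 receptors (Kiss1r, Tacr3 and Npffr1). Female Sprague Dawley rats were sampled at 2 stages without any treatment, the group Prepuberty at postnatal day 25 and the group Puberty at postnatal day 35, at the first estrus, with vaginal opening taken as the mark of puberty. The methods give 3 rats per stage, but a single column of values was deposited for each, without a statement of how the animals entered it. With 1 library per stage there is no spread between replicates, so differences are described without p-values.

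GnRH is released by a small number of scattered neurons and drives the pituitary to secrete the gonadotropins. Kisspeptin, which acts on GnRH neurons through its receptor Kiss1r (also called GPR54), is the best known trigger of that release at puberty. Neurokinin B, made from Tac3, acts on Tacr3 and is made by the kisspeptin neurons of the arcuate nucleus together with dynorphin, while the RFamide peptides made from Npvf act on Npffr1 and are known mainly as inhibitors of the axis. Kisspeptin neurons carry receptors for estrogen, which acts on Kiss1 in opposite ways in the arcuate nucleus and in the rostral periventricular area.

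The values are FPKM, which count fragments relative to transcript length and library size, and they were summed over the transcripts of each gene. In both libraries the low FPKM of genes with a single transcript were whole multiples of 1 step that depends on transcript length, so the number of fragments behind each value could be derived. Between 1 and 5 fragments, 95.4% of 1549 low values came out whole within 0.05 in the prepubertal library and 94.9% of 1781 in the pubertal library. The scale corresponds to about 20800000 fragments before puberty and 16200000 at puberty. The derived numbers give exact Poisson intervals at 95%, which cover counting error only and carry no spread between rats. Differences are given as log2 of (pubertal FPKM + 1) over (prepubertal FPKM + 1). Peptide genes that mark the hypothalamus were abundant, such as Pmch with 1675 and 2723 FPKM and Hcrt with 196 and 249 FPKM. All 15 hypothalamus markers were above 0 in both libraries, but so were all markers of telencephalon and thalamus, choroid plexus and fibroblasts.

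The promoters of Kiss1 and Npvf are shown because these were the 2 genes of the axis whose difference between the libraries exceeded the counting error. RefSeq promoter sequences (build GRCr8, a later build than that of the files) were matched by symbol for 5 of the 7 genes. The 250 bases before the annotated start are printed, 5′ to 3′ on the strand of the gene. Capitals mark matches, on either strand, to the TATA box (TATAAA), the GC box (GGGCGG), the core of a cyclic AMP response element (TGACG) and the core of an estrogen response element (GGTCA).
Kiss1, chr13:47326909-47327158, plus strand: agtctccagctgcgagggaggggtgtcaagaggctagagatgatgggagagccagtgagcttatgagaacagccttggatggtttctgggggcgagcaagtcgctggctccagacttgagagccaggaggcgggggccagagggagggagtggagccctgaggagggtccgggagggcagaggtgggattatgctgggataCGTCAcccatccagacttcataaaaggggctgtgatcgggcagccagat
Npvf, chr4:81047046-81047295, minus strand: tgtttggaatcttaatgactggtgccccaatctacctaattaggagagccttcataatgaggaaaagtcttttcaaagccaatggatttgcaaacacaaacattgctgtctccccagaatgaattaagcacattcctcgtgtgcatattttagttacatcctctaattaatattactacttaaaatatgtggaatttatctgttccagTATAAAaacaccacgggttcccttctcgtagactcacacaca
The Kiss1 window held the letters TGACG on the minus strand, beginning 49 bases before the start. The same letters were found in the windows of Tacr3 and Npffr1, 3 of 5, against 18.2% of 33469 promoters. The Npvf window held TATAAA 42 bases before the start, as did that of Tacr3 (82 bases before), 2 of 5 against 12.9%. GGTCA was found in 1 of 5 windows, that of Kiss1r, on both strands, against 35.4% of all promoters. The full estrogen response element, 2 copies of GGTCA that face each other 3 bases apart and so overlap matches to the core, was in 0 of 5 windows and in 8 of the 33469. GGGCGG was found in Npffr1 alone, against 30.5%. The GC content was 60.4% for Kiss1 and 37.2% for Npvf, with a median of 51.2% over all promoters. A match of letters is a description of the window and does not show a binding site.

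Kiss1 (ENSRNOG00000047481), the kisspeptin gene, showed the largest difference of the axis. It had 1.46 FPKM in the prepubertal library, with a counting interval of 0.783 to 2.65, and 3.78 FPKM in the pubertal library (2.46 to 5.51). The level was 2.59 times as high at puberty, a log2 ratio of 0.96, on about 12 and 26 fragments. Brought to equal depth at the length of the longest transcript, the ratio of these fragments was 2.75, with an exact binomial interval of 1.34 to 5.99. This interval lay above 1, which was also the case for 5.69% of the 1284 genes with 20 to 60 fragments in both libraries together, while 6.46% had an interval below 1. Among genes with that number of fragments, 2.52% had a fold in FPKM at least as large as that of Kiss1. With 38 fragments in all, the size of the difference is known only within these wide bounds, and the hypothalamus was measured in bulk, so more kisspeptin cells and more RNA per cell cannot be told apart.

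Kiss1 was the only gene of the axis with several transcripts, 3 in all. ENSRNOT00000076506, the longest with 895 nt, had 0.359 FPKM before puberty and 1.84 FPKM at puberty. ENSRNOT00000035583 (393 nt) had 0.244 and 1.20 FPKM. In contrast, ENSRNOT00000077054 (600 nt) had 0.857 and 0.737 FPKM. The share of the gene's FPKM taken by the 600 nt transcript was thus 58.7% before puberty and 19.5% at puberty, while that of the 895 nt transcript was 24.6% and 48.7%. The fragments behind the 3 transcripts, from longest to shortest, came to 4.76, 6.11 and 0.690 before puberty and to 19.2, 4.17 and 2.77 at puberty. They are not whole, since fragments that match several transcripts were divided between them. With these rounded to whole fragments, the ratio was 4.83 for the 895 nt transcript, with an interval of 1.74 to 16.5. Such intervals treat divided fragments as whole and independent, so they are approximate for single transcripts. For the 600 nt transcript the ratio was 0.840, with an interval of 0.174 to 3.54, and for the 393 nt transcript it was 3.84, with an interval of 0.309 to 202. The difference between the transcripts was not tested.

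**Figure D1:**
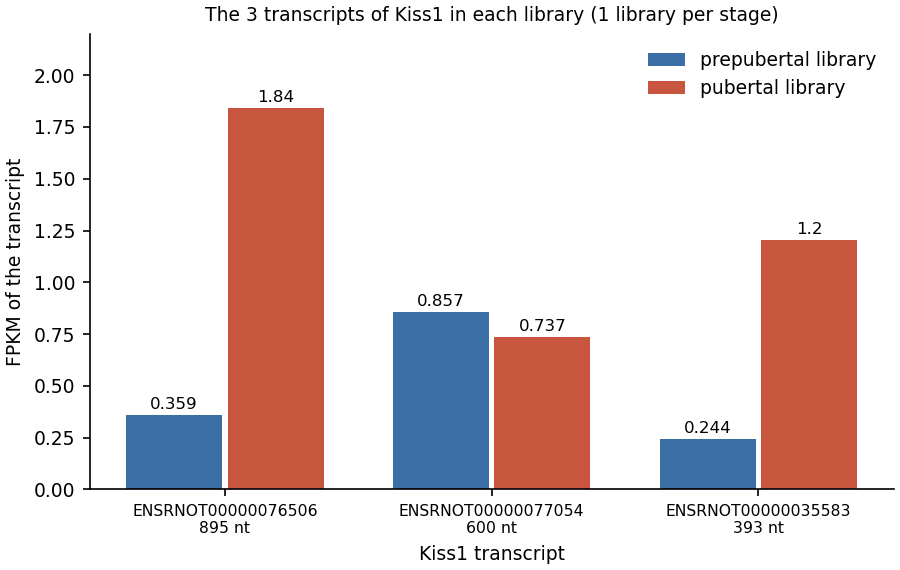
FPKM (y axis) of the 3 Kiss1 transcripts (x axis, longest on the left) in the prepubertal (blue) and pubertal (red) library, with 1 library per stage and therefore no error bars. The 895 nt and 393 nt transcripts had 1.84 and 1.20 FPKM at puberty, the latter on 2.77 fragments, whereas the 600 nt transcript had 0.857 and 0.737 FPKM.

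The other peptide genes had higher FPKM than Kiss1 in both libraries, although the counting intervals of Gnrh1 and Kiss1 overlapped at puberty. Npvf (ENSRNOG00000010806), the precursor of the RFamide-related peptides, was the most abundant gene of the axis, with 42.1 FPKM (37.4 to 47.3) before puberty and 57.7 FPKM (51.5 to 64.4) at puberty. Its log2 ratio was 0.44, a 1.37-fold higher level with a counting interval of 1.16 to 1.61, on 290 and 315 fragments. The counting intervals of the 2 libraries did not overlap for Npvf. An interval above 1 was found for 14.9% of the 3314 genes with 300 to 900 fragments, and an interval below 1 for 20.2%, so such a difference was common at this depth.

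Tac3 (ENSRNOG00000004229), the neurokinin B gene, had 20.7 FPKM (18.0 to 23.8) and 24.3 FPKM (21.0 to 28.1), a log2 ratio of 0.22 on 201 and 186 fragments. Its 1.17-fold difference had an interval of 0.955 to 1.44, so that it was not detectable beyond counting error. Gnrh1 (ENSRNOG00000013441), which encodes GnRH, was the 1 peptide gene with a lower value at puberty. It had 8.46 FPKM (5.96 to 11.7) before puberty and 6.28 FPKM (3.94 to 9.52) at puberty, a log2 ratio of -0.38. This rests on 37 and 22 fragments, and the interval of the ratio, 0.417 to 1.29, contained 1.

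For none of the 3 receptor genes was a difference detectable beyond counting error. Kiss1r (ENSRNOG00000011954), the kisspeptin receptor, had 1.52 FPKM (1.06 to 2.12) and 1.77 FPKM (1.21 to 2.50), a log2 ratio of 0.14 on 35 and 32 fragments. Tacr3 (ENSRNOG00000009372), the neurokinin B receptor, was the most abundant receptor, with 5.09 FPKM (4.41 to 5.84) and 5.69 FPKM (4.88 to 6.60), a log2 ratio of 0.14 on 201 and 176 fragments. Npffr1 (ENSRNOG00000000559), the receptor of the RFamide-related peptides, had 1.62 FPKM (1.13 to 2.26) and 1.18 FPKM (0.722 to 1.82), a log2 ratio of -0.27 on 35 and 20 fragments. The intervals of the fragment ratio contained 1 for all 3 receptors, 0.699 to 1.94 for Kiss1r, 0.909 to 1.38 for Tacr3 and 0.398 to 1.30 for Npffr1. Over the 7 genes the interval lay above 1 for 2 and below 1 for 0, against 17.8% and 22.1% of the 15202 genes with at least 10 fragments.

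**Figure D2:**
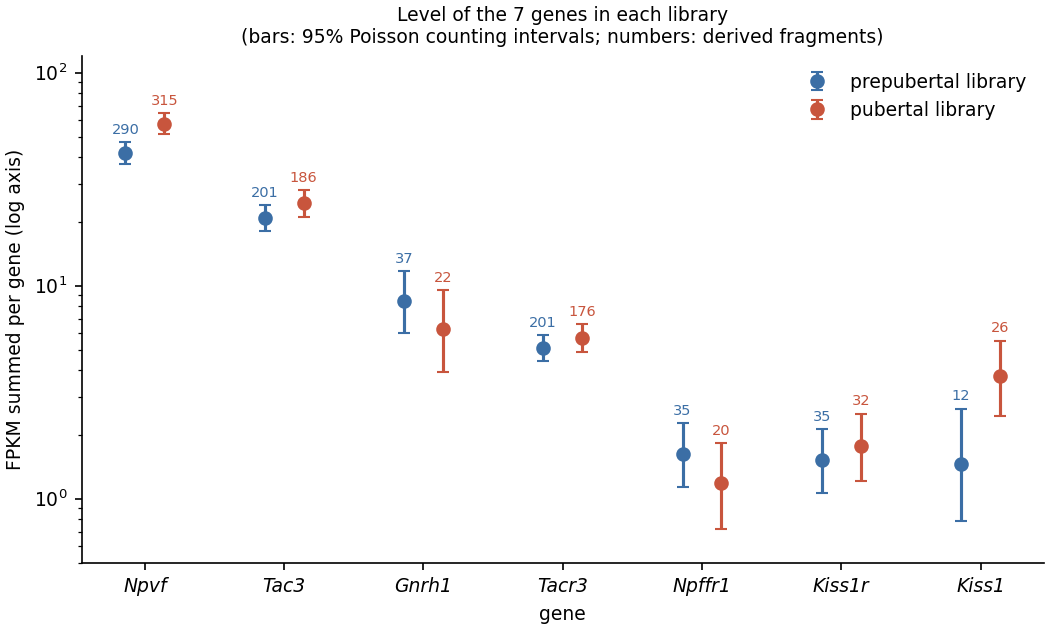
FPKM per gene (y axis, log scale) of the 7 genes (x axis) in the prepubertal (blue) and pubertal (red) library, with bars for 95% Poisson counting intervals and the derived fragments printed above. Npvf at 42.1 and 57.7 FPKM stands highest, and its bars and the bars of the other genes show counting error only.

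The order of the levels in the prepubertal library was Npvf, Tac3, Gnrh1, Tacr3, Npffr1, Kiss1r and Kiss1, and the last 3 did not differ beyond their counting intervals. In the pubertal library Kiss1 stood before Kiss1r and Npffr1, and the intervals of neighbours overlapped from Gnrh1 downwards. Among the 22777 genes, Npvf lay at percentile 87.3 before puberty and 90.6 at puberty, and Kiss1 at percentile 41.8 and 50.6. For Npvf the FPKM of the peptide gene was 26.0 times that of the receptor gene Npffr1 before puberty and 48.8 times at puberty. Npffr1 entered these ratios with 35 and 20 fragments. The ratio of Tac3 to Tacr3 was 4.08 and 4.27. For Kiss1 over Kiss1r it was 0.960 and 2.14, since Kiss1r had nearly the same value in both libraries.

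Of the 7 genes, 5 were higher and 2 lower at puberty (Gnrh1 and Npffr1), with a median log2 ratio of 0.14. Over the 18052 genes above 0 in 1 library, 49% were higher, 51% were lower and the median was -0.01. At least 2-fold apart in FPKM + 1 were 0 of the 7 genes, against 0.681% of all 22777 genes and 1.54% of the 5567 genes with a mean of 1 to 10 FPKM, the range of Kiss1, Kiss1r, Npffr1, Tacr3 and Gnrh1. Kiss1 stood just under the 2-fold line, and 0.683% of the genes in that range had a log2 ratio at least as high. Across these libraries, genes with short transcripts had slightly higher log2 ratios at puberty, with class medians from 0.07 at 717 to 1044 nt to -0.10 from 4289 nt. Centred on the median of their length class, the ratios were 0.89 for Kiss1, 0.40 for Npvf and -0.43 for Gnrh1.

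**Figure D3:**
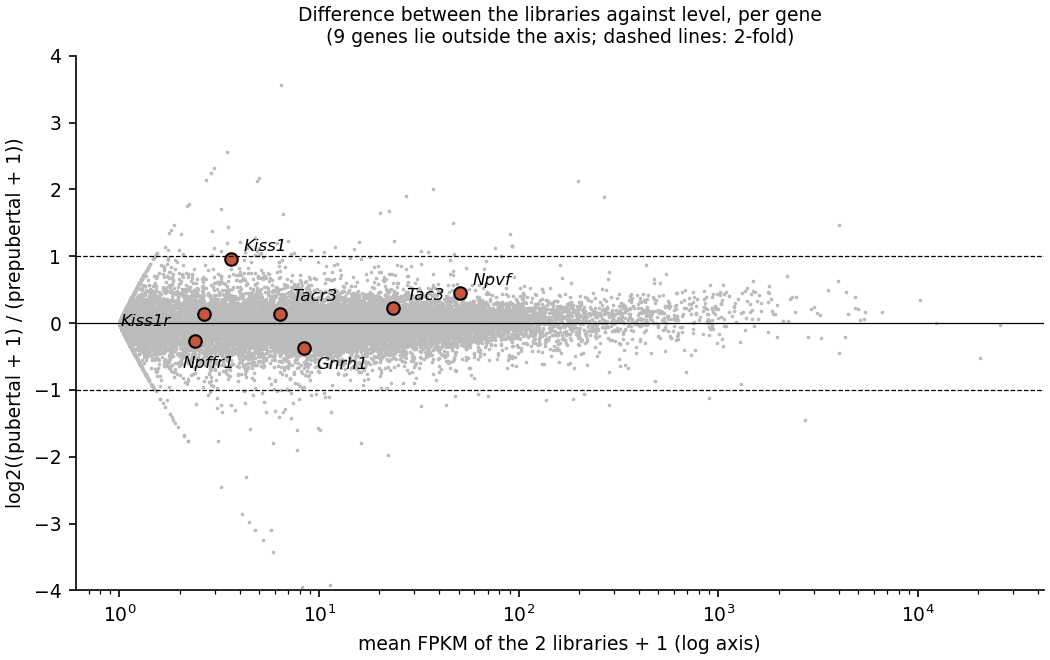
Log2 ratio of FPKM + 1, pubertal over prepubertal (y axis), against the mean FPKM + 1 of both libraries (x axis, log scale) for 18052 genes (grey, 9 of them outside the axis) and the 7 genes of the axis (red). Kiss1 at 0.96 lies just below the dashed line of a 2-fold difference, and the other 6 genes lie between -0.38 and 0.44.

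The locus XLOC_113511, a lncRNA that the study pairs with Kiss1, has 2 transcripts in the deposited sequences. TCONS_00129939 (585 nt) and TCONS_00136999 (521 nt) share a run of 458 nt. The ends where they differ are shown because they tell the transcripts apart, with capitals for bases that 1 transcript has alone and lower case for the first 50 bases of the shared run. TCONS_00129939 carries 104 nt of its own at the 5′ end and 23 nt at the 3′ end, and TCONS_00136999 has a 3′ end of 63 nt of its own, its bases 459 to 521. The genome position of these transcripts was not analysed here.
TCONS_00129939, bases 1 to 154: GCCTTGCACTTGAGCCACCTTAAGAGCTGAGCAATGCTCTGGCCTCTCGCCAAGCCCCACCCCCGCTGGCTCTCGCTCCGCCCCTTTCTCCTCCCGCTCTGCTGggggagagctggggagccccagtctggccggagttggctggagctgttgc
TCONS_00129939, 3′ end: GTATCCTAACCCCTGGCCACTGG
TCONS_00136999, 3′ end: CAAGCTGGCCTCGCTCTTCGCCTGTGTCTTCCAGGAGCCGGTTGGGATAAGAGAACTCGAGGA
The transcript with the longer 5′ end, TCONS_00129939, had 12.7 FPKM before puberty and 10.3 FPKM at puberty, with a fragment ratio of 0.796 (0.558 to 1.13). TCONS_00136999 had 17.7 and 19.1 FPKM, with a ratio of 1.09 (0.801 to 1.47). Neither difference was detectable beyond counting error, with divided fragments again rounded to whole ones. On 184 and 139 fragments, the ratio of the whole locus was 0.952 (0.758 to 1.19), whereas that of Kiss1 was 2.75 (1.34 to 5.99), and the 2 intervals did not overlap. By quantitative PCR, the study reported both XLOC_113511 and Kiss1 as increased in rats at puberty. Here the FPKM gave no increase of the locus beyond counting error. The locus had 20.8 times the FPKM of Kiss1 before puberty and 7.75 times at puberty.

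Peptides and receptors related to the axis were set beside it, 13 genes in all. Of the 12 above 0 in 1 library, 5 were higher and 7 lower at puberty, with a median log2 ratio of -0.03 that turned to 0.04 with Actb made equal (0.30 over all genes) and to 0.01 with equal medians (0.04 over all genes). Pdyn, the dynorphin precursor, had 21.5 and 23.3 FPKM, close to the level of Tac3, and its receptor Oprk1 had 8.26 and 8.19 FPKM. Tac1, the substance P gene, had 62.8 and 72.0 FPKM (log2 ratio 0.19, fragment ratio 1.15, 1.05 to 1.26), and its receptor Tacr1 had 2.76 and 2.65 FPKM. Npffr2, another receptor of RFamide peptides, had 1.06 FPKM before puberty and 0.369 FPKM at puberty, on 22 and 6 fragments (ratio 0.348, 0.115 to 0.884). Its ligand gene Npff had 1.82 and 0.969 FPKM on 7 and 3 fragments (ratio 0.533, 0.0889 to 2.33). Prlhr, the receptor of prolactin-releasing peptide, had 1.96 and 3.01 FPKM (ratio 1.54, 1.03 to 2.29), whereas Prlh itself was listed at 0 in both libraries. Qrfp was listed at 0.807 FPKM and then at 0, on 2 fragments, and its receptor Qrfpr had 0.691 and 0.352 FPKM. Tac4 was listed at 0.235 FPKM and then at 0, on 4 fragments. Tacr2 and Gnrhr, the pituitary receptor of GnRH, had at most 0.0452 FPKM, on at most 2 fragments per library. Both count among the 5 higher genes, and Tac4 and Qrfp among the 7 lower.

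Of the 5 receptors of sex steroids, 4 were higher at puberty, with a median log2 ratio of 0.27. Esr2, estrogen receptor beta, had 0.925 and 1.56 FPKM on 36 and 48 fragments (ratio 1.70, 1.08 to 2.70). Pgr, the progesterone receptor, had 4.51 and 5.64 FPKM (ratio 1.25, 1.05 to 1.49). Esr1, estrogen receptor alpha, had 1.86 and 2.21 FPKM with an interval of 0.836 to 1.68. The interval lay above 1 for 3 of these 5 genes, against the 17.8% of genes given above. Over the same libraries the hypothalamus markers had a median of 0.24 (11 of 15 higher) and the telencephalon and thalamus markers of -0.42, and their part in this list was not tested.

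Kiss1r and Tacr3 signal through Gq, phospholipase C and calcium. Of the 17 genes of this route in the table, 2 were higher and 15 lower at puberty, with a median log2 ratio of -0.12, against a median of -0.01 over all genes. Making Actb equal multiplies every pubertal value by 1.32 and shifts the median of all genes to 0.30, with 15057 of 18052 higher. On that scale 15 of the 17 were higher and their median was 0.19, again below that of all genes. The ratios of this list were not centred on length classes, so the part of transcript length was not tested. The lowest ratio was that of Itpr2, a calcium release channel (6.19 and 3.89 FPKM, -0.56). The highest were those of the cation channels Trpc6 (3.31 and 4.21 FPKM, 0.27) and Trpc5 (8.83 and 8.94 FPKM, 0.02). Gnaq, the Gq subunit itself, had 93.2 and 92.6 FPKM.

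Genes of GnRH neuron development and migration were divided, with 6 higher and 8 lower of 14 above 0, and 2 of the 16, Fgf8 and Prok2, listed at 0 in both libraries. Isl1 had 5.69 and 8.01 FPKM (log2 ratio 0.43) and Nhlh2 had 3.17 and 4.32 FPKM (0.35, on 10 and 11 fragments). Fgfr1, a growth factor receptor needed for GnRH neurons, had 22.4 and 15.4 FPKM (-0.51), and Vax1 had 1.28 and 0.812 FPKM (-0.33). The median was -0.06, and 0.25 with Actb made equal, where that of all genes was 0.30.

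Of the 12 upstream regulators of puberty, 7 were higher, 4 lower and 1, Lin28a, was listed at 0 in both libraries. The median log2 ratio of the 11 was 0.04. It was -0.02 with the summed mRNA FPKM made equal (-0.05 over all genes) and 0.41, with 9 of 11 higher, with Actb made equal (0.30 over all genes). Sirt1 had 11.7 and 13.2 FPKM (0.16) and Cux1 had 30.3 and 32.9 FPKM (0.11). Mkrn3, an imprinted gene whose loss advances puberty, had 3.04 and 2.03 FPKM on 84 and 44 fragments (log2 ratio -0.41, fragment ratio 0.668, 0.453 to 0.974). Lin28b, an RNA-binding protein tied to the timing of puberty, had 8.45 and 2.76 FPKM (-1.33). It was the 1 gene at least 2-fold apart in this list of 12 and in all pathway lists, against 0.681% of all 22777 genes. Its difference came from a transcript of 288 nt, listed at 6.98 and 0.974 FPKM, while its transcript of 816 nt had 1.47 and 1.79 FPKM. The lowest FPKM above 0 among genes with a single transcript of 288 nt was 1.16 before puberty and 1.38 at puberty, so the value of this short transcript rests on few fragments.

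All 4 peptides are cut from precursors and amidated. Of the 6 genes of peptide maturation in the table, 2 were higher and 4 lower at puberty, with a median of -0.15. With Actb made equal it was 0.25, against 0.30 over all genes. Furin had 6.01 and 3.92 FPKM (-0.51), Cpe had 854 and 610 FPKM (-0.49), and Qpct, which forms the blocked end of GnRH, had 17.7 and 20.5 FPKM (0.20). Scg5 had 507 and 562 FPKM (0.15), and Pam, the amidating enzyme, had 128 and 126 FPKM.

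**Figure D4:**
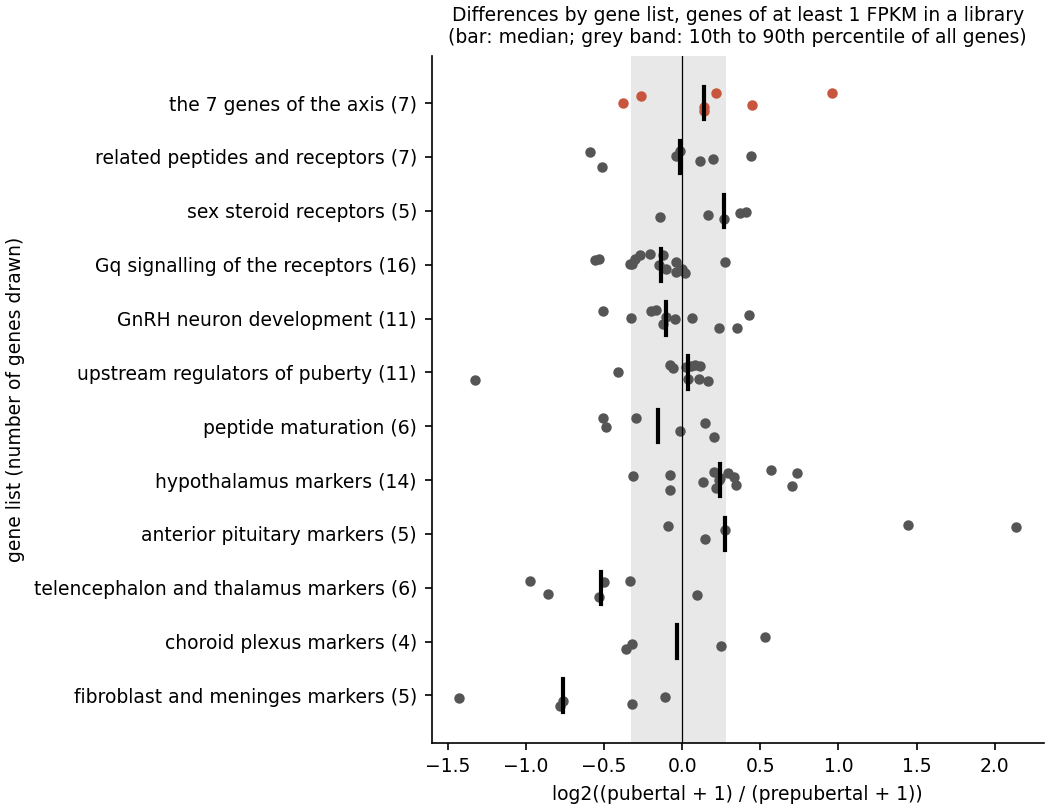
Log2 ratio of FPKM + 1, pubertal over prepubertal (x axis), for the 7 genes of the axis (red) and the genes of the 11 pathway and marker lists with at least 1 FPKM in 1 library (grey points), with the median of each as a bar and the 10th to 90th percentile of all genes as a band. The medians were 0.14 for the axis, 0.27 for sex steroid receptors, 0.24 for hypothalamus markers, -0.52 for telencephalon and thalamus markers and -0.76 for fibroblast and meninges markers.

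Markers of tissue composition also differed between the libraries. Of the 15 hypothalamus markers, 11 were higher at puberty, with a median log2 ratio of 0.24, and their summed FPKM was 2806 and 4227. Most of that difference came from Pmch and Oxt (411 and 686 FPKM), and the other 13 markers summed to 719 and 818 FPKM. Of the 8 telencephalon and thalamus markers, 6 were lower, with a median of -0.42 and sums of 166 and 126 FPKM. All 5 markers of fibroblasts and meninges were lower, with a median of -0.76 and sums of 57.9 and 35.6 FPKM, 2 of them higher with Actb made equal. Col1a1 (9.57 and 2.93 FPKM, ratio 0.306, 0.267 to 0.351) was the 1 of these 5 at least 2-fold apart, against 0.681% of all 22777 genes. Choroid plexus markers were divided, with 3 higher and 2 lower of 5 and a median of 0.04, and each was above 0 at either stage. Their sums were 35.5 and 30.5 FPKM, most of it from Ttr (29.0 and 23.0 FPKM, ratio 0.793, 0.650 to 0.966), while Aqp1 had 1.22 and 2.21 FPKM (ratio 1.81, 1.29 to 2.56). Of the 8 anterior pituitary markers, 6 were higher, with sums of 31.8 and 44.5 FPKM, and 2 of them, Prl and Gh1, were at least 2-fold higher. The 6 included Gnrhr, with 1 fragment in each library. The part of tissue composition in the values of the axis and of the pathway lists was not tested.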

How the data were processed

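Hypothalamic RNA of Sprague Dawley rats was depleted of ribosomal RNA and sequenced from strand-specific libraries. Paired reads were aligned (TopHat) and assembled (Cufflinks 2.1.1 and Scripture) by the authors, who deposited FPKM per transcript, estimated with Cuffdiff 2.1.1 (Rnor_5.0 per the labels). Gene names and lengths came from the authors' comparison table, whose p-values, q-values and log2 ratios were not used. That table also lists FPKM, which differed from the mRNA table for 13 transcripts, 0 of them of the 7 genes.

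FPKM were summed per gene, and log2 ratios were taken after adding 1. The number of fragments was derived as FPKM × (length − a) / b, with a and b fitted per library on single-transcript genes of 500 to 3000 nt, and applied to transcripts of at least 350 nt. The step fit was tested on simulated data. The derived fragments were divided by the same scale to give intervals (exact Poisson per library, exact binomial for ratios, 95%). With 1 library per stage no test was made. The 7 genes, the lists and the motifs were chosen with earlier results of these data known, and the fragment numbers were added after the data were examined. Named genes were the 7 genes, the related peptides and receptors, and in each other pathway list the 2 highest and 2 lowest log2 ratios among genes of at least 1 FPKM; Gnaq, Pam, Pgr, Hcrt, Cga, Fshb and the genes listed at 0 were named after their values were seen. Some genes that this rule selects are not reported here. Plcb2 and Pcsk1 were not found in the table by symbol. Shares of genes by counting interval were taken over transcripts longer than 400 nt. Computation used scipy 1.17.1, pandas 2.3.3 and numpy 2.4.6 under Python 3.11.15, with plots from matplotlib 3.10.9.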

Additional observations from a re-analysis of the deposited data

How the results depend on the processing

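Filters on low FPKM and the FPKM of the comparison table left the ratios of the 7 genes as they were, and the choice of transcript could move Kiss1 only. The pseudocount, the 3 scalings, length classes and derived fragments moved them without turning a direction. Over these settings the log2 ratio ranged from 0.89 to 1.46 for Kiss1, 0.39 to 0.84 for Npvf, 0.15 to 0.61 for Tac3, 0.09 to 0.49 for Tacr3, 0.10 to 0.41 for Kiss1r, -0.46 to -0.03 for Npffr1 and -0.43 to -0.02 for Gnrh1. Adding 1 to the low FPKM of Kiss1 brings its 2.59-fold ratio to a log2 ratio of 0.96, just under 2-fold. The number of genes past 2-fold, 0 as reported, became 1 (Kiss1) with a pseudocount of 0.1, with its most abundant transcript, after scaling to equal medians, after scaling to equal Actb, and as a ratio of derived fragments. Over all genes 155 were at least 2-fold apart, 1189 with a pseudocount of 0.1 and 275 with Actb made equal. Making Actb equal multiplied pubertal values by 1.32 and moved the median of all genes from -0.01 to 0.30 and that of the 7 genes from 0.14 to 0.49. Length classes and derived fragments were added after the data were examined. For the genes of the lists only the scalings were run. No paired analysis was possible because each stage has 1 library. Counting error, the only error these files give, leaves Gnrh1, Kiss1r and Npffr1, at 20 to 37 fragments, without a detectable difference.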

Other observations

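The genes whose levels lay nearest to those of Kiss1, by distance in log2(FPKM + 1) over the 2 libraries, were Adal (1.59 and 3.88 FPKM, distance 0.0823), Nppc, the precursor of C-type natriuretic peptide (1.64 and 3.61 FPKM, distance 0.114), and LOC102546892 (1.67 and 3.93 FPKM, distance 0.125). With 2 libraries, likeness of this kind describes a level and a ratio only.

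Hormone genes of the anterior pituitary, the target of GnRH, ranged from 0 to the level of Cga. Prl was listed at 0 before puberty and at 3.40 FPKM at puberty, on 41 fragments, and Gh1 had 0.872 and 4.09 FPKM on 10 and 37 fragments. Of the gonadotropin genes, Lhb had 1.44 and 1.29 FPKM, on 7 and 5 fragments, and Fshb was listed at 0 and then at 0.396 FPKM, on 9 fragments. Cga, the subunit they share, had 24.6 and 30.0 FPKM, and Tshb had 4.68 and 5.28 FPKM. The fragment ratio of Gh1 was 4.69, with a counting interval of 2.29 to 10.6, and the interval for Prl began at 13.5. Of the 8 pituitary markers, 6 were higher at puberty, against 49% of genes above 0, and 2 were at least 2-fold apart, against 0.681% of all genes. The 6 included Gnrhr, which had 1 fragment in each library. They also included Cga and Tshb, whose intervals (0.998 to 1.48 and 0.638 to 1.98) contained 1.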
